A study of Mus musculus with 25 samples.

Results

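Kitl, Cxcl12, Thpo, Epo, Angptl2 and Angpt1 encode secreted or membrane-bound factors that support blood-forming cells in the fetal liver. The genes were taken from the whole-genome arrays as every probe set annotated to exactly 1 of the 6 symbols. Kitl (4 probe sets), Cxcl12 (3) and Angpt1 (2) were found, so 3 of the 6 factors and 3 of 18193 measured genes are described. Thpo, Epo and Angptl2 had no probe set named in the annotation used and were not analysed here. A gene was represented by the set with the highest mean log2 intensity over 14 stages, which was 1415855_at for Kitl, 1448823_at for Cxcl12 and 1439066_at for Angpt1.

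Livers of random-bred C57/B6 mice were collected at 14 stages, and the livers of a stage were pooled before RNA extraction. The 6 postnatal pools came from the day of birth (Day0), from days 3, 7, 14 and 21 (Day3 to Day21) and from adults of 18 weeks, with 3 livers each. The 8 fetal pools came from embryonic days 11.5 to 18.5 (E11.5 to E18.5), pooled from 12 (E11.5), 9 (E12.5 and E13.5), 6 (E14.5 and E15.5) or 3 livers (E16.5 to E18.5). No group carried a transgene or received a treatment, per the labels. At 11 stages the pool was run on 2 arrays as technical repeats, and E18.5, Day7 and Day14 had 1 array. Since each stage is a pool, the n of a class counts stages and not animals, and an SD over a class also holds the developmental change among its stages.

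The fetal liver is the main site of blood formation in the mouse embryo, and this role passes to bone marrow around and after birth. Kitl (stem cell factor) acts through the receptor tyrosine kinase Kit on stem, progenitor, erythroid and mast cells, and Cxcl12 is the chemokine that attracts and retains blood-forming cells through Cxcr4. Angpt1 is the ligand of the receptor Tek (Tie2), which is found on endothelial cells and on stem cells, while thrombopoietin (Thpo) drives platelet production and erythropoietin (Epo) drives red cell production through Epor.

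The 25 arrays had median log2 intensities between 5.41 and 5.53, and repeat arrays of a pool differed by a technical SD of 0.11 to 0.22 log2 units. The samples matched their labelled tissue: the mean log2 intensity of 8 hepatoblast and hepatocyte markers lay between 11.84 and 12.88 in the postnatal pools and between 10.84 and 12.53 in the fetal pools. The E18.5 pool stood apart in 10 skeletal muscle markers, whose mean log2 intensity was 6.90 there and 5.26 to 5.63 in the other 13 pools. The comparisons across birth and over the fetal span are therefore also given without E18.5 for the factors and for the receptors that passed a test, whereas the step from E18.5 to Day0 has no value without it. The 3 pools with 1 array, E18.5, Day7 and Day14, had the highest mean log2 intensities of 29 genes typical of other organs. These were 5.45, 5.51 and 5.49, against 5.14 to 5.37 in the other pools. The same 3 pools held the lowest values of Angpt1 and of Kit. In them, stage and a difference shared by single-array pools cannot be told apart.

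RefSeq held a start site for Kitl and Cxcl12. Their promoters are shown because the postnatal and fetal class means of these factors differed in opposite directions. Each line gives the 250 bases before the annotated start on the plus strand in assembly GRCm38.p6, with the TATA box TATAAA and the GC box GGGCGG (read as CCGCCC where it lies on the minus strand) in capitals.
Kitl promoter, chr10:100015571-100015820: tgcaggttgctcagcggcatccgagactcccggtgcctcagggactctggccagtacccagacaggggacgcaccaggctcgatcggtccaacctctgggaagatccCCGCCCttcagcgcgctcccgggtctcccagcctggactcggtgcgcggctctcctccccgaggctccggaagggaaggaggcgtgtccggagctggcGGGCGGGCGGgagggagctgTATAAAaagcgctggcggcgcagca
Cxcl12 promoter, chr6:117168285-117168534: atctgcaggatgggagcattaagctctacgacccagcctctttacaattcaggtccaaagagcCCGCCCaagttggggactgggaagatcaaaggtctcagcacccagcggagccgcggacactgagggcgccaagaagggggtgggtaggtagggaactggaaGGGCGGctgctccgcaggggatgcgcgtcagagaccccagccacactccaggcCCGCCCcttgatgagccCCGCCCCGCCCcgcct

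The Kitl window held 1 TATAAA at position -25 from the start, and the Cxcl12 window held none. On both strands together, 12.4% of 32851 promoters of the same length held TATAAA. Kitl had 3 GC boxes and Cxcl12 had 5, with 1 overlapping pair in each window, and 32.7% of the promoters held GGGCGG. Both windows held more CpG than the median of 6, with 23 in Kitl and 14 in Cxcl12. Fewer CpG than in Kitl were found in 86.7% of the promoters, and fewer than in Cxcl12 in 70.6%. Neither window held the CCAAT box, either of the GATA motifs AGATAA and TGATAA, or the core ACGTG of hypoxia response elements. Most promoters lack each of these, since 33.8% held CCAAT, 9.99% AGATAA, 7.94% TGATAA and 16.6% ACGTG.

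Kitl was highest in the early fetal liver and lowest in the adult. Its log2 intensity was 7.79, 8.95, 8.75, 8.94, 8.23, 7.98, 7.82 and 7.07 from E11.5 to E18.5, then 7.44, 7.34, 6.61, 6.39, 6.44 and 6.20 from Day0 to the adult. Levels were high from E12.5 to E14.5, lower in each later fetal pool, and within 0.24 log2 units of each other from Day14 to the adult. The whole span from the adult to E12.5 was 2.75 log2 units, or 6.74-fold. In the order of the 14 levels no pair of neighbours differed by more than 0.68, the largest gap between repeat arrays of Kitl. Sorting places similar levels side by side, so this measure cannot show whether stages differ. The measure includes any offset between replicate numbers, and replicate 1 was the higher array at 10 of 11 stages.

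Cxcl12 ran the other way and was higher in the later stages. Its log2 intensity was 8.02, 7.84, 7.60, 7.84, 8.12, 8.01, 8.48 and 8.84 from E11.5 to E18.5, then 8.53, 9.43, 10.40, 9.42, 9.92 and 9.84 from Day0 to the adult. The level was lowest at E13.5 and highest at Day7, a span of 2.80 log2 units or 6.95-fold. Repeat arrays of Cxcl12 differed by up to 0.79, in the adult pool, and again no neighbouring pair in the order of the 14 levels differed by more than that. Here too replicate 1 was the higher array at 10 of 11 stages. The Day7 value came from 1 array, numbered replicate 1, so such an offset is not averaged out there.

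Angpt1 was low, near or under the median of all probe sets in every pool but E12.5. Its log2 intensity was 5.47, 6.34, 5.64, 5.78, 5.36, 5.25, 5.38 and 4.63 from E11.5 to E18.5, then 5.37, 5.19, 4.74, 4.78, 4.96 and 5.16 from Day0 to the adult. A value under the pool's median over all probe sets was counted as dim, and Angpt1 was dim in 6 of 6 postnatal and 4 of 8 fetal pools; the pools from E11.5 to E14.5 were the exceptions. E12.5 held the highest value. In the order of the 14 levels, 1 of 13 neighbouring pairs, E12.5 over E14.5, differed by more than 0.25, the largest gap between repeat arrays of Angpt1.

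**Figure D1:**
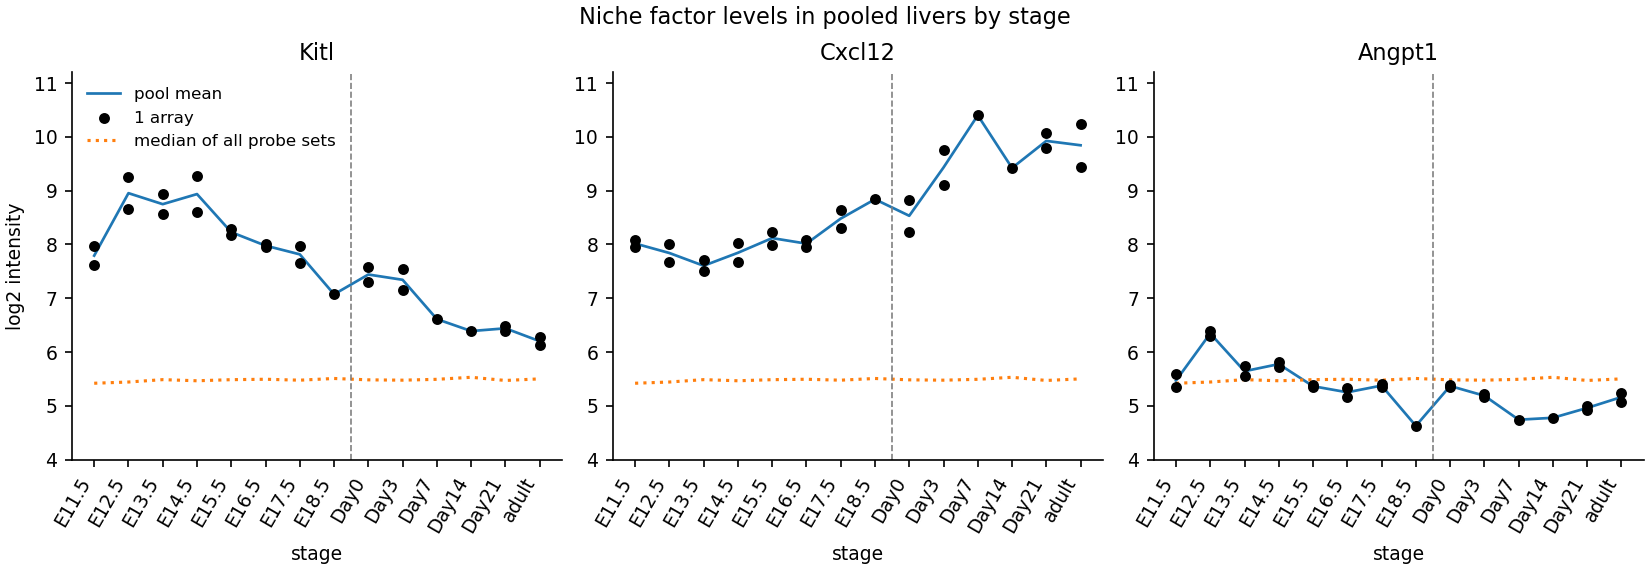
Log2 intensity (vertical axis) of Kitl, Cxcl12 and Angpt1 by stage (horizontal axis), with black points for single arrays, a blue line for the pool mean, an orange dotted line for the median of all probe sets, and a grey dashed line marking birth. Kitl lies lower after birth, at 6.20 in the adult, Cxcl12 lies higher, at 10.40 at Day7, and Angpt1 lies near the median in most pools.

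The postnatal pools were set against the fetal pools to ask whether the factors changed as blood formation left the liver. Between the class means, the difference called across birth here, Kitl was 2.74-fold lower and Cxcl12 2.82-fold higher after birth. Angpt1 passed no threshold. The single step from E18.5 to Day0 did not run in these directions, at 0.37 log2 units for Kitl and -0.31 for Cxcl12. A gene was called at an adjusted p under 0.05 (limma, Benjamini-Hochberg over 18193 genes) and a difference of at least 1 log2 unit, which 9.51% of all genes met, 5.01% higher and 4.5% lower. Called were 2 of the 3 factors, in opposite directions. In pooled livers, fewer cells of a type and less RNA per cell cannot be told apart.

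Kitl averaged 6.74 ± 0.52 in the postnatal pools (SD, n = 6) and 8.19 ± 0.66 in the fetal pools (SD, n = 8). The difference was -1.45 ± 0.31 log2 units (SE), with an adjusted p of 0.00578 in limma. The classes overlapped through E18.5, which lay below Day0 and Day3, and 4 of 6 postnatal pools lay below every fetal pool. Without E18.5 all 6 did, and the classes of 11.5% of all genes were separated in that setting. The difference was then -1.61 ± 0.27 log2 units.

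Cxcl12 averaged 9.59 ± 0.63 in the postnatal pools (SD, n = 6) and 8.09 ± 0.39 in the fetal pools (SD, n = 8). The difference was 1.5 ± 0.26 log2 units (SE), with an adjusted p of 0.0019 in limma. The classes overlapped through E18.5, which lay above Day0, and 5 of 6 postnatal pools lay above every fetal pool. Without E18.5 all 6 did, and the difference was 1.60 ± 0.25 log2 units.

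Angpt1 averaged 5.03 ± 0.25 in the postnatal pools (SD, n = 6) and 5.48 ± 0.49 in the fetal pools (SD, n = 8). The difference of -0.45 ± 0.21 log2 units had an adjusted p of 0.145 in limma, and without E18.5 it was -0.57 ± 0.17 with an adjusted p of 0.0245, still under 1 log2 unit. All 6 postnatal pools lay within the fetal range, of which E18.5 (4.63) was the low end; without E18.5, 5 of 6 postnatal pools lay below every fetal pool.

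**Figure D2:**
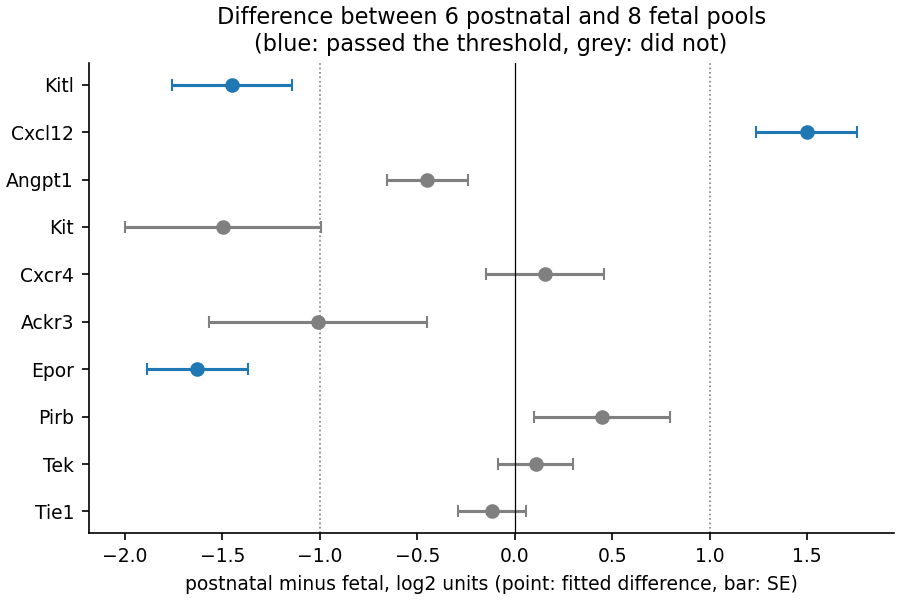
Difference between 6 postnatal and 8 fetal pools in log2 units (horizontal axis) for the 3 factors and 7 receptors (vertical axis), with points for the fitted difference, bars for its SE, and dotted lines at 1 log2 unit either way. Blue marks the genes that passed the threshold: Kitl at -1.45, Cxcl12 at 1.5 and Epor at -1.63.

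The probe sets of a gene did not move together. Of the 4 Kitl sets, 1448117_at was lower after birth by -0.81 ± 0.21 log2 units (adjusted p = 0.022 over all probe sets), which missed the size threshold. The set 1426152_a_at differed by -0.07 ± 0.11 and 1415854_at, dim in all 14 pools, by -0.13 ± 0.07. The call on Kitl thus rests on 1 of its 4 sets, and with the mean of the 4 the difference was -0.62 log2 units.

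For Cxcl12 another set, 1417574_at, was also called, at 1.87 ± 0.33 log2 units (adjusted p = 0.00331), and its postnatal and fetal pools did not overlap. Such separation was found in 4.09% of all genes. In this set it was narrow, with the lowest postnatal pool (Day0) at 8.018 and the highest fetal pool (E11.5) at 8.011. The repeat arrays of Day0 differed by 0.34, which is more than that margin. The third set, 1439084_at, differed by -0.04 ± 0.07 although it was dim in no pool, with a mean log2 intensity of 7.24 in the postnatal and 7.28 in the fetal pools. The other Angpt1 set, 1421441_at, was dim in all 14 pools and differed by 0.05 ± 0.05.

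**Figure D3:**
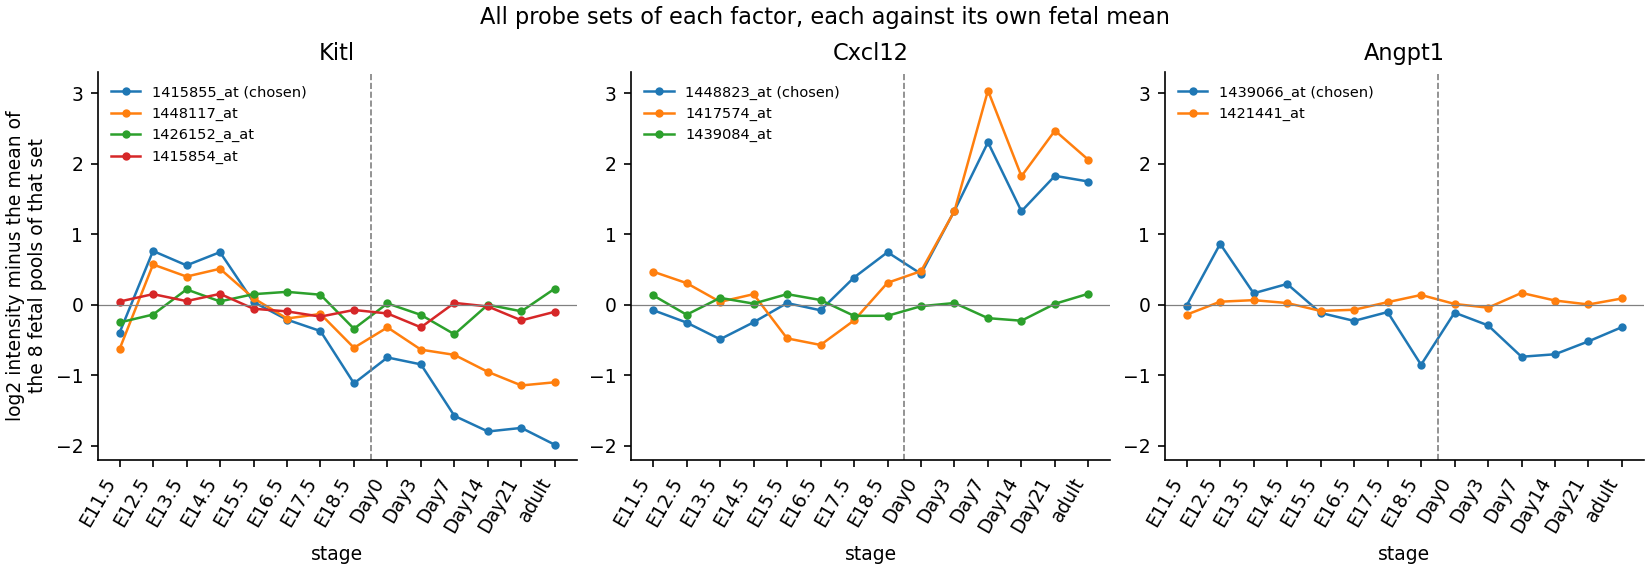
Log2 intensity of each probe set minus its own mean over the 8 fetal pools (vertical axis) by stage (horizontal axis), 1 line per probe set, with a grey dashed line marking birth. Of the Kitl sets 1415855_at and 1448117_at run downward, of the Cxcl12 sets 1448823_at and 1417574_at run upward after birth, and the other sets stay near 0.

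Within fetal life a straight line was fitted over the 8 pools, and the change over the span from E11.5 to E18.5 is given. No factor passed the threshold, which 16.4% of all genes met. Kitl changed by -1.14 ± 0.53 log2 units (adjusted p = 0.138), with 7.07 at E18.5 and 7.79 at E11.5. Cxcl12 changed by 0.87 ± 0.26 (adjusted p = 0.0391), under the size threshold, and the other called set 1417574_at by -0.52 ± 0.35.

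Angpt1 changed by -1.03 ± 0.34 log2 units over the same span (adjusted p = 0.0548). The pool at E11.5 weighed on all 3 lines: without it Kitl fell by 2.12, Angpt1 fell by 1.55 and Cxcl12 rose by 1.23 log2 units, each past the threshold. Without E18.5 the changes were -0.60, -0.69 and 0.56 log2 units for Kitl, Angpt1 and Cxcl12.

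The late pools (Day14, Day21 and adult) were compared with the newborn pools (Day0, Day3 and Day7), since blood formation leaves the liver in the first weeks after birth. No factor passed the threshold, which 1.74% of all genes met. Kitl averaged 6.34 ± 0.13 in the late and 7.13 ± 0.45 in the newborn pools (SD, n = 3 each), a difference of -0.79 ± 0.43 log2 units (SE, adjusted p = 0.417). Cxcl12 differed by 0.28 ± 0.40 (adjusted p = 0.821) and Angpt1 by -0.13 ± 0.32 (adjusted p = 0.907).

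Between neighbouring stages, where the error comes from technical repeats of the pools alone, 1 of the 39 tests of a factor passed the threshold. Kitl rose at E12.5, to 8.95 against 7.79 at E11.5, a difference of 1.16 ± 0.23 log2 units (adjusted p = 0.00244), at a step where 1.71% of all genes were called higher. The call held under 3 of 4 alternatives, among which the smallest difference was 0.65. At this step the Kitl set 1448117_at went from 5.98 to 7.19. The sets 1426152_a_at and 1415854_at went only from 5.90 to 6.01 and from 4.61 to 4.72. Cxcl12 differed by 0.90 ± 0.26 at Day3 against Day0 (adjusted p = 0.0447) and by 0.97 ± 0.32 at Day7 against Day3 (adjusted p = 0.038), both under 1 log2 unit.

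Angpt1 differed by 0.88 ± 0.10 log2 units at E12.5 against E11.5, by -0.70 ± 0.10 at E13.5 against E12.5 and by -0.75 ± 0.12 at E18.5 against E17.5. None of these reached 1 log2 unit. At Day0 against E18.5, the step across birth, the differences were 0.37 ± 0.28 for Kitl, -0.31 ± 0.32 for Cxcl12 and 0.74 ± 0.12 for Angpt1, none of them called.

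The receptors described here are 7 genes. Epor, the erythropoietin receptor, was called lower after birth and was the 1 receptor of 7 that passed, a share near the 9.51% of all genes. Its log2 intensity was 9.16, 9.42, 9.50, 9.44, 9.57, 8.92, 8.67 and 8.55 from E11.5 to E18.5, then 8.41, 8.23, 6.93, 7.27, 7.12 and 7.18 from Day0 to the adult. All 6 postnatal pools lay below all 8 fetal pools, a separation that 4.09% of all genes showed in either direction, with a difference of -1.63 ± 0.26 log2 units (adjusted p = 0.00118), or -1.72 ± 0.26 without E18.5.

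Kit, the Kitl receptor, was at 9.13, 8.32, 7.88, 7.76, 7.63, 6.95, 7.06 and 5.49 from E11.5 to E18.5, then at 7.49, 6.48, 5.03, 5.54, 5.71 and 5.94 from Day0 to the adult. It was highest at E11.5, a stage at which Kitl was below its later fetal peak. Kit fell over the fetal span by 2.89 ± 0.37 log2 units (adjusted p = 0.00171), and by 2.30 ± 0.29 without E18.5, where it was dim. After birth against before it differed by -1.5 ± 0.5 (adjusted p = 0.0501), just short of the threshold, and by -1.79 ± 0.42 without E18.5 (adjusted p = 0.00742). The 2 sets of Kit disagreed, since 1415900_a_at differed by -0.12 ± 0.10 across birth and by -0.23 ± 0.18 over the fetal span.

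Cxcr4, the signalling receptor of Cxcl12, was highest around birth. Its log2 intensity was 5.32, 5.12, 5.06, 5.05, 5.40, 5.70, 6.15 and 5.91 from E11.5 to E18.5, then 6.62, 6.61, 5.34, 5.13, 5.01 and 5.0 from Day0 to the adult. It was dim in 9 of 14 pools, among them those from E11.5 to E15.5 and from Day7 on, so no size is given for its drop after Day3. Across birth as a whole it differed by 0.15 ± 0.30 (adjusted p = 0.752).

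Ackr3, which binds Cxcl12 and removes it from the surroundings of the cell, was at 8.56, 8.08, 6.26, 7.01, 5.17, 5.27, 5.41 and 5.29 from E11.5 to E18.5, and between 4.77 and 6.22 after birth. High values were seen in the pools from E11.5 to E14.5. It was dim in 7 of 14 pools, among them those from E15.5 to E18.5, so the size of its fall is uncertain. The fitted change over the fetal span was -3.42 ± 0.65 log2 units (adjusted p = 0.00667) and -4.03 ± 0.75 without E18.5, and the difference across birth, -1.01 ± 0.56, was not called (adjusted p = 0.224).

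Tek, the Angpt1 receptor, differed by 0.11 ± 0.19 log2 units across birth and its relative Tie1 by -0.12 ± 0.17, with adjusted p of 0.728 and 0.666. Tek lay between 5.97 and 7.00 after birth and between 5.97 and 6.93 before it. Pirb, an inhibitory receptor that binds Angptl2, rose over the fetal span by 1.90 ± 0.29 log2 units (adjusted p = 0.00286), and by 1.37 ± 0.15 without E18.5, and differed by 0.45 ± 0.35 across birth (adjusted p = 0.393). Pirb has near-identical Pira neighbours, and it was dim from E11.5 to E14.5, so its values are uncertain.

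**Figure D4:**
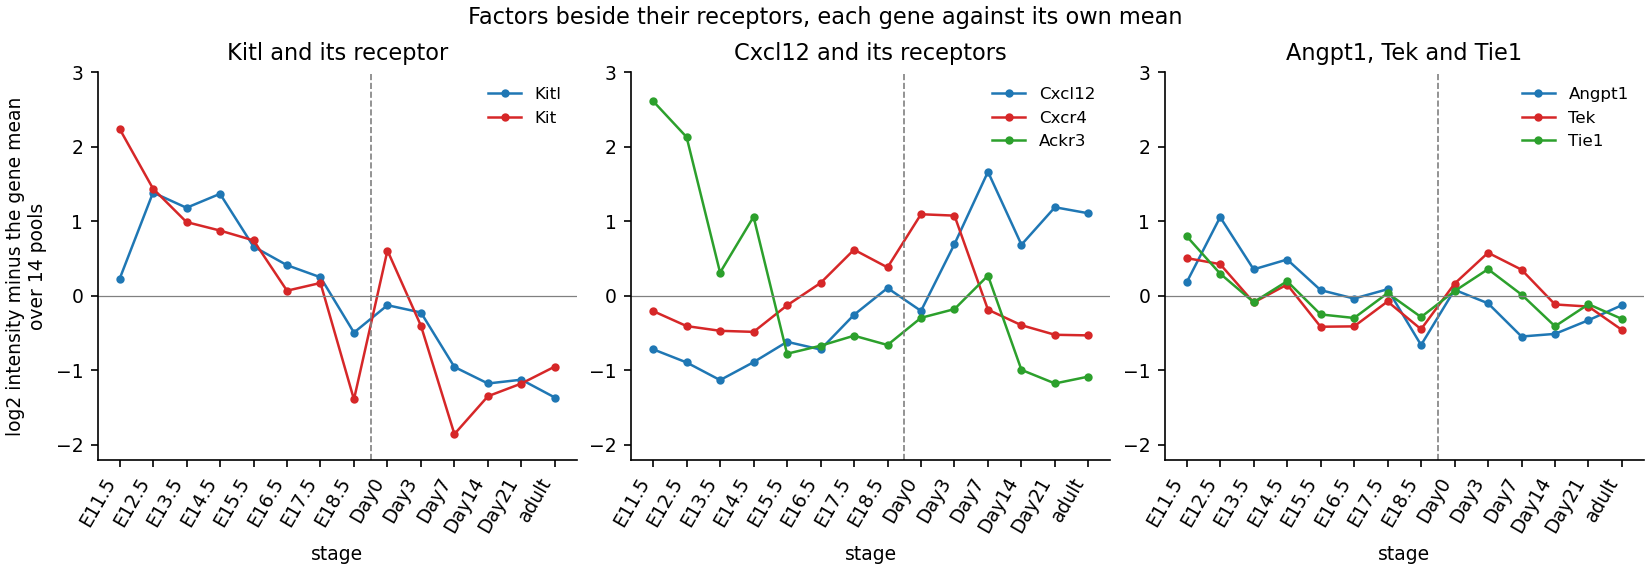
Log2 intensity of each gene minus its mean over 14 pools (vertical axis) by stage (horizontal axis), for Kitl with Kit, Cxcl12 with Cxcr4 and Ackr3, and Angpt1 with Tek and Tie1; the grey dashed line marks birth. Kit starts at its highest level at E11.5, Ackr3 is high up to E14.5, and Cxcr4 peaks at Day0 and Day3.

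Other genes of these pathways came from lists chosen from general knowledge, and the median difference across birth over all 18193 genes was 0.01 log2 units. The counts below stand against 9.51% of all genes called, and those of signalling, niche and growth factors and the angiopoietin family are near that share. Of 18 measured genes of cytokine receptor signalling, 1 was higher after birth and 1 lower, with a median of -0.13. Socs2, a feedback inhibitor, rose by 1.74 ± 0.53 log2 units, and Pim1, a survival kinase, fell by 1.66 ± 0.37. Jak2, the kinase attached to Epor, differed by -0.94 ± 0.22 (adjusted p = 0.00912), under the size threshold. With arrays centred on housekeeping genes, which moved the median of all genes to 0.31, the median of this list was 0.16.

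Of 27 other niche and growth factors, 3 were higher and 1 lower, with a median of 0.07. Igf1, the growth hormone-dependent growth factor, averaged 10.49 in the postnatal and 7.44 in the fetal pools, and Dlk1, a surface protein of hepatoblasts, averaged 7.33 in the postnatal and 11.32 in the fetal pools. Fibronectin (Fn1) rose by 1.57 ± 0.46 and Vegfa by 1.03 ± 0.12 log2 units. In the angiopoietin family 1 of 6 was called, Angptl4, an inhibitor of lipoprotein lipase, which was higher by 1.57 ± 0.42.

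Of 14 genes of oxygen sensing and Epo control, 3 were higher and none lower, with a median of -0.13, or 0.16 with housekeeping centring. Epas1, the hypoxia-inducible factor that drives Epo, rose by 2.28 ± 0.30 log2 units, Rxra by 1.3 ± 0.23 and Hnf4a by 1.26 ± 0.21. Of 8 genes of factor shedding and clearance, 3 were higher and 1 lower, with a median of 0.08. Asgr1, a subunit of the asialoglycoprotein receptor, averaged 10.21 in the postnatal and 5.59 in the fetal pools, while Dpp4, a peptidase that cleaves Cxcl12, rose by 2.16 ± 0.42 and the membrane protease Adam10 fell by 1.61 ± 0.39.

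Lists of markers of the cells that make or receive these factors were read against the 9.51% of all genes called across birth. Of 14 erythroid markers 12 were lower after birth and none higher, with a summed intensity of 1649 to 16795 in the postnatal pools and 12021 to 35381 in the fetal pools. The mean log2 intensity of the list was 9.12, 10.12, 10.35, 10.50, 10.72, 10.24, 10.26 and 10.23 from E11.5 to E18.5, then 9.57, 9.60, 7.65, 6.35, 6.39 and 6.23 from Day0 to the adult. Kitl and this list were both low from Day14 to the adult. The part of red cell precursors in the Kitl difference was not tested.

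Of 15 stem and progenitor markers 4 were called lower and none higher, but 8 of the 15 differences were positive and their median was 0.01 log2 units. The list had a summed intensity of 1376 to 3503 in the postnatal and 4515 to 6055 in the fetal pools. The transcription factors Tal1, at -3.06 ± 0.46 log2 units, and Myb, at -2.35 ± 0.56, were among the called genes. Of 10 megakaryocyte markers 2 were lower, and of 9 granulocyte markers none was called. The granulocyte list summed to 1024 to 34532 in the postnatal pools and 2638 to 38687 in the fetal pools, and its levels were high from E15.5 to Day7.

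Stellate, mesenchymal and endothelial cells are among the known sources of Kitl and Cxcl12. Of 17 stellate and mesenchymal markers 1 was higher and none lower, with a summed intensity of 3174 to 11694 in the postnatal and 4797 to 11667 in the fetal pools. The 1 called gene was Dcn, a matrix proteoglycan, at 1.62 ± 0.40 log2 units. Only 6 of the 17 differences were positive, and their median was -0.27 log2 units. Over the fetal span 1 of the 17 was called higher and 4 lower, against 16.4% of all genes called: Dcn changed by 2.52 log2 units, and Pdgfra and Hand2, genes of early liver mesenchyme, by -3.17 and -2.5.

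Of 10 endothelial markers 2 were higher after birth, Clec4g at 2.97 ± 0.35 and Stab2 at 1.07 ± 0.27 log2 units, genes of the sinusoidal lining. The list summed to 1678 to 3337 in the postnatal pools and 1229 to 1916 in the fetal pools. Of 5 mesothelial markers none was called. The part of these cell types in the Cxcl12 difference was not tested. The hepatocyte list had 4 of 8 genes higher and none lower.

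**Figure D5:**
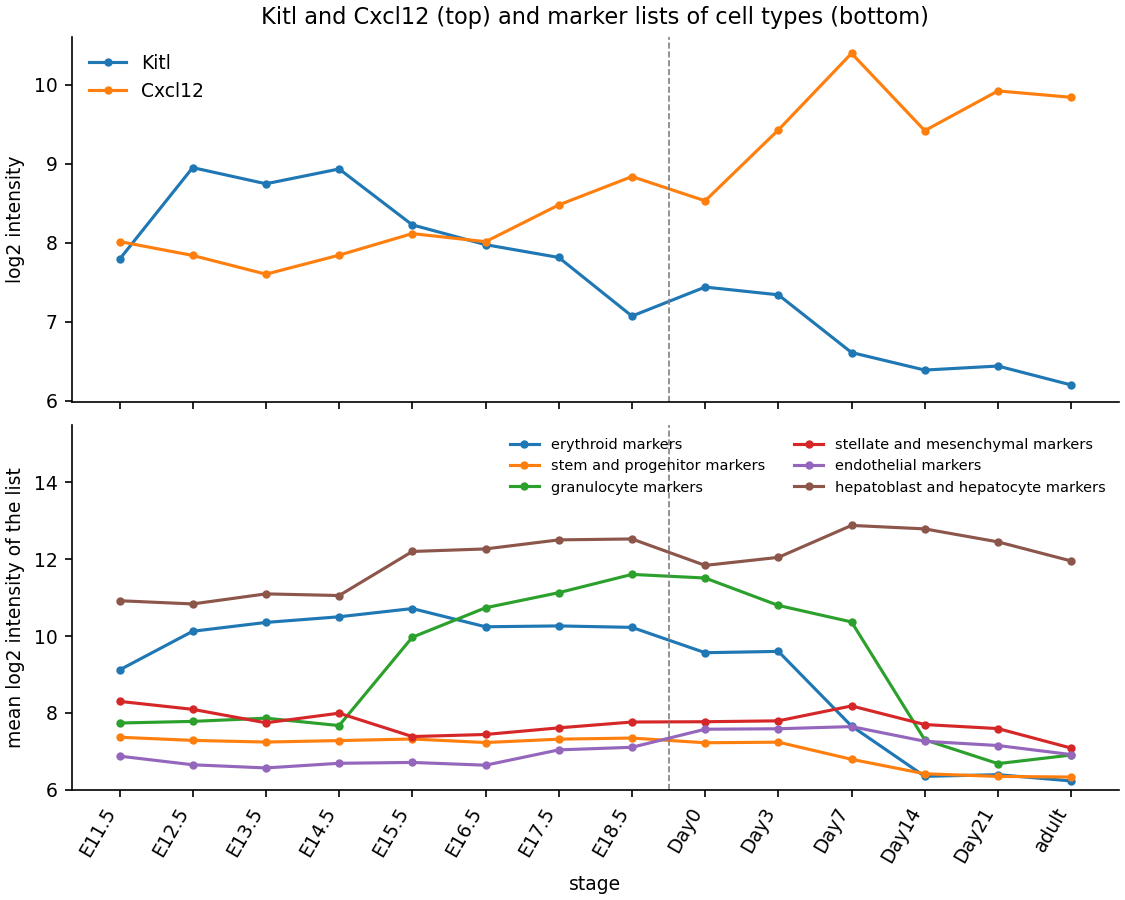
Log2 intensity of Kitl and Cxcl12 (top) and mean log2 intensity of 6 marker lists (bottom) by stage, with a grey dashed line marking birth. The erythroid list lies at 9.12 to 10.72 before birth and at 6.23 to 6.39 from Day14 on, and Kitl is lower and Cxcl12 higher in those late pools than in the fetal pools.

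Among 4039 genes that were dim in at most 7 of 14 pools and varied by an SD of at least 0.5 over the 14 pools, those with the pattern most like Kitl were Haus3, 2210408K08Rik and Lnpk, at Pearson r of 0.982, 0.979 and 0.978. All 3 were highest at E12.5. Cxcl12 was most like Stra6l, Fam20c and Dsg2, at 0.984, 0.980 and 0.978, and all 3 were highest at Day7. Angpt1 was most like Togaram1, Mphosph8 and C230091D08Rik, at 0.976, 0.953 and 0.952. These values describe 14 pools that share a developmental order.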

How the data were processed

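The deposited table holds linear intensity values for 45101 probe sets on 25 Affymetrix arrays; RMA was used by the authors, per the submitters' processing notes, with version, scaling and build not given in the sources used here. Array medians were 42.6 to 46.3 and means 140.5 to 210.4, so the normalization step is unknown. The log2 of each intensity was taken. Of the probe sets 34945 carried 1 symbol, 932 several and 9160 none, and 64 controls were left out. The annotation can be old, and the update through RefSeq changed 0 symbols.

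Repeat arrays of a pool were averaged. Fits used limma 3.58.1 (lmFit, eBayes) in R 4.3.3 on all 18193 genes; a gene was called at an adjusted p under 0.05 and 1 log2 unit. Genes were named as all factors and receptors, up to 4 called genes per direction and 2 others of each list, and the 3 nearest genes by Pearson r. The members and lists were chosen with earlier results of these data known. On simulated data of 18193 genes, a change counted as found by significance only, and no minimum size was asked for. The comparison across birth found 83% of 2-fold and 91% of 4-fold changes with 3.87% false hits. Late against newborn pools gave 60% and 88% with 5.73%, and the fetal course 56% and 83% with 7.33%. Calls as defined here also need 1 log2 unit, so these rates do not describe them. P-values measure the spread between pools, or between technical repeats for neighbouring stages. The number of arrays limits the precision. Alternatives covered scaling, probe set choice, dim genes, variance model, repeat arrays, class boundaries and the omission of each pool; other probe sets of a factor were tried after seeing the data.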

Additional observations from a re-analysis of the deposited data

Results flagged for a closer look

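Among 20 groups of pools tested for a value far from the others, 1 was found, and chance gives about 1 in 20. Pirb was at 7.39 at Day7 among the postnatal pools, against 6.19 in the nearest of the other 5. Day7 had 1 array, and Pirb has near-identical neighbours.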

How the results depend on the processing

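Across birth, Kitl kept its direction and call under 25 of 29 alternatives. The exceptions were the mean of its probe sets (-0.62) and the sets 1448117_at (-0.81), 1426152_a_at (-0.069) and 1415854_at (-0.13). Cxcl12 kept both under 27 of 28, and set 1439084_at turned its sign (-0.042). These sets were tried after seeing the data, and the cause of the disagreement was not tested. Angpt1 stayed uncalled under all 26, and Kit, not called as reported, was called under 9 of 25.

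In the fetal course, quantile normalization brought a call for Cxcl12 (1.21) and Angpt1 (-1.07), and so did housekeeping centring for Cxcl12 (1.56), and median centring (-1.09) and a variance trend (-1.03) for Angpt1. Leaving out each pool gave -2.12 to -0.60 for Kitl, 0.56 to 1.23 for Cxcl12 and -1.55 to -0.69 for Angpt1, with calls without E11.5. The genes called there numbered 2979, and 4488 with housekeeping centring. Between late and newborn pools 317 genes were called, against 527 with replicate 1 arrays alone, 681 with stages of 2 arrays, and 140 (without the adult) to 488 (without Day7) when a pool was left out; 141 remained without Day3, 191 without Day0 and 202 without Day21.

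Housekeeping centring moved the median of all genes to 0.31 across birth, 0.36 in late against newborn pools and 0.73 in the fetal course, and the share of calls that were higher to 72.9%, 37.3% and 85.6%, against 52.7%, 12.0% and 26.9% as reported. Relative to that median, Kitl was at -1.47 and Cxcl12 at 1.48 across birth. The medians of the signalling, oxygen sensing, receptor, mesothelial and stellate lists turned positive under it.
Quantile normalization gave 25.8% and 41.5% higher calls in late against newborn pools and in the fetal course. With stages of 2 arrays, the share in late against newborn pools was 36.6%.

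With replicate number as a term and stage as a random block (replicate block), 1177 genes were called between late and newborn pools. That block gave -1.49 for Kitl and 1.44 for Cxcl12 across birth and changed no call on the 3 factors. Replicate 1 deviations of 2 stages correlated over 0.1 in 38 of 55 pairs, with a range of -0.57 to 0.73. An offset between replicate numbers was thus shared by many stages but not by all. The main fits held no replicate term. Angpt1 could not be fitted without dim genes, since it is one. Few arrays and the dimness of Angpt1 limit what can be seen.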
